A study of Mus musculus with 11 samples.

Results

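The miR-130 and miR-301 family was examined in mouse spermatogonial progenitor cells with and without knockdown of Mov10, which encodes an RNA helicase. A microRNA (miRNA) is cut from a hairpin RNA, and a mature strand can come from its 5′ arm (5p) or its 3′ arm (3p). The strand loaded into an Argonaute protein represses messenger RNAs that pair with its seed, here bases 2 to 8. The 3p strands of this family share a seed, so they are predicted to recognise overlapping targets, and in other systems the family is known for repressing regulators of growth and of TGF-beta signalling. Members were all entries of both small RNA tables with the stem miR-130a, miR-130b, miR-301a or miR-301b, whichever the arm, which gave 8 of 1096 listed miRNAs. Of these, 4 were the 3p and 4 the 5p strands. In mouse, miR-130a and miR-301a each have a locus of their own, and miR-130b and miR-301b lie side by side as a cluster.

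The cells were Thy1-positive germ cells of pups, at postnatal day 6 by the labels, while the methods give a range of days starting there. The labels give the strain as C57BL/6, and the methods name B6;129S-Gt(Rosa)26Sor/J mice. Cells were grown long term on mitotically inactivated STO feeder cells, a mouse embryonic fibroblast line, some of which may remain in a harvested culture. They carried a lentiviral pLKO.1 vector, either without a hairpin against Mov10 (labelled Mov10 Vector, here the control library) or with the short hairpin against the gene (labelled Mov10 knockdown). Each group had 1 small RNA library, so the spread between cultures is unknown, and every interval and test below covers counting error only and compares the 2 libraries rather than the conditions. The Mov10 messenger RNA was not measured in these libraries, so they hold no check of its depletion.

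The sequences below are the mature strands of RefSeq for GRCm38.p6, written 5′ to 3′ with the seed in capitals, and are shown because the seed ties the 3p strands together while the remainder sets them apart. A RefSeq sequence was found for 7 of the 8 members, the exception being miR-301b-3p.
miR-130a-3p: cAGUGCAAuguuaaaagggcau
miR-301a-3p: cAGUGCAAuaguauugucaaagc
miR-130b-3p: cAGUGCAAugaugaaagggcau
miR-130a-5p: gCUCUUUUcacauugugcuacu
miR-130b-5p: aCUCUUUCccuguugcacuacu
miR-301a-5p: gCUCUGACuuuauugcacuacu
miR-301b-5p: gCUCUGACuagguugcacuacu

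With positions counted from 1 at the 5′ end, miR-130a-3p and miR-130b-3p differed only by U11A and A13G. Both share their first 9 bases with miR-301a-3p and part from it beyond. The reads had been mapped without a mismatch, which separates strands that differ by even 1 base where a read spans it. The seed AGUGCAA was held by 7 mature miRNAs of the RefSeq table. Besides the 3 printed here, these were miR-130c, miR-721, miR-6341 and miR-6389, none of which was listed in the small RNA tables. The 5p strands did not share one seed. miR-301a-5p and miR-301b-5p both carried CUCUGAC and differed by U10A, U11G and A12G, whereas miR-130a-5p carried CUCUUUU and miR-130b-5p CUCUUUC.

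The 4 hairpins lay at 3 places in the genome (GRCm38.p6 coordinates, GENCODE vM21 annotation). Mir130a, of 64 bp, was on the minus strand of chr2:84741115-84741178 and overlapped no other annotated gene. Mir301, the gene of miR-301a, was on the plus strand of chr11:87113004-87113089, within the first intron of Ska2, a spindle and kinetochore gene, 3699 bp after exon 1. Mir301b (chr16:17124400-17124496) and Mir130b (chr16:17124061-17124142) were both on the minus strand in the first intron of 2610318N02Rik, which is 1335 bp long. Mir301b came first in the direction of transcription, and 257 bp separated the hairpins. No member overlapped an exon of its host gene.

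The control library had 9628835 reads on miRNAs out of the 10518277 behind its TPM, and the knockdown library 2794593 out of 3194363. TPM here is reads per 1000000 reads with no correction for length, so 1 read was worth 0.0951 TPM for the control and 0.313 TPM for the knockdown. Changes are log2 ratios, knockdown over control, and their median over the 607 miRNAs above 1.5 TPM in at least 1 library was -0.37, with quartiles at -1.03 and 0.32. In bulk cultures, fewer cells of a type and less RNA per cell cannot be told apart.

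In the control library the 3p strands ranked miR-130a-3p, miR-301a-3p, miR-130b-3p and miR-301b-3p from high to low. miR-130a-3p had 27239 control and 8498 knockdown reads, which is 2589.7 and 2660.3 TPM. It was 45th in level among the 1096 miRNAs in both. miR-301a-3p had 13029 and 5911 reads, or 1239 and 1850.45 TPM, and moved from rank 70 to rank 53. miR-130b-3p, from the cluster, went the other way, with 8534 and 1483 reads, 811 and 464 TPM, and ranks of 79 and 103. miR-301b-3p was the scarcest 3p strand, with 1523 and 353 reads, which is 145 and 111 TPM. The order of the 4 levels was the same in both libraries, and the 95% counting intervals of neighbours in that order did not overlap in either. Reads of different sequences are not ligated and amplified equally well, so the order is one of reads.

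**Figure D1:**
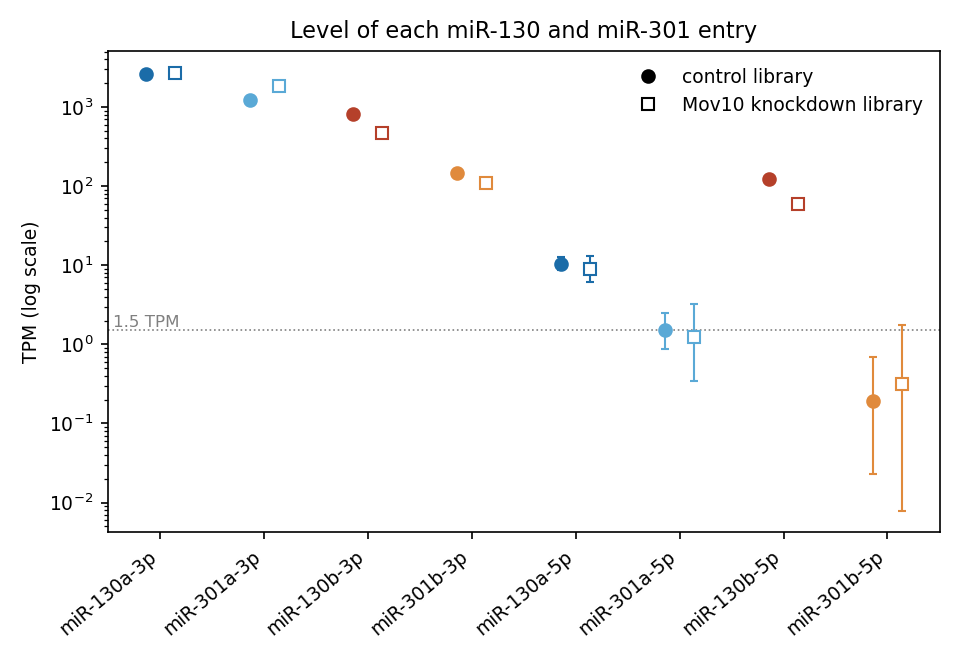
Level in TPM (log scale) of each of the 8 members in the control library (filled circles) and the Mov10 knockdown library (open squares), with 95% exact counting intervals where they are larger than the symbol. The dotted line is the 1.5 TPM minimum. miR-301a-3p was higher and miR-130b-3p, miR-130b-5p and miR-301b-3p were lower in the knockdown library.

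The 3p strands of the cluster had log2 changes below 0 and those of the single-gene loci above 0 under each of 4 scalings by library, while over 1 common total all 4 were below 0. The log2 change of miR-130b-3p was -0.81 (95% interval -0.89 to -0.73, adjusted p = 5.3e-98), a fold of 0.572. That of miR-301b-3p was -0.39 (-0.56 to -0.22, adjusted p = 1.3e-05), a fold of 0.763 and close to the median of all miRNAs. miR-301a-3p was 1.49-fold higher, just short of 1.5-fold, with a log2 change of 0.58 (0.53 to 0.62, adjusted p = 1.3e-135). miR-130a-3p changed by 0.04 (0.00 to 0.07), and its adjusted p of 0.092 missed the threshold of 0.05. These are exact binomial tests on reads with Benjamini-Hochberg adjustment over all 1096 miRNAs. The median ratio of all miRNAs and TMM factors raised every log2 change by 0.25 and 0.22. On these scales the values of miR-301b-3p were -0.14 (adjusted p = 0.27) and -0.17 (adjusted p = 0.13), so its call was lost, while miR-130a-3p passed the test at 0.29 and 0.26.

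All 4 of the 5p strands had fewer reads than their 3p partners. miR-130b-5p had 1297 control and 189 knockdown reads, or 123 and 59.2 TPM, and was lower by the same test (log2 change -1.06, -1.29 to -0.84, adjusted p = 7.8e-24). It was the member with the lowest ratio between the libraries. miR-130a-5p had 110 and 29 reads, 10.5 and 9.08 TPM, with a log2 change of -0.20 (-0.85 to 0.40) that did not pass. miR-301a-5p had 16 and 4 reads, or 1.52 and 1.25 TPM, and its interval of -2.32 to 1.35 leaves the direction undetermined at this depth. It reached the 1.5 TPM minimum through the control library alone. miR-301b-5p had 2 control reads and 1 knockdown read, at or under a floor of 3 reads in each, so no fold is given.

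Counted by a threshold of 1.5-fold, 2 of the 7 members above the minimum were lower in the knockdown library, miR-130b-3p and miR-130b-5p, against 41.7% of the 607 miRNAs. None of the 7 was over 1.5-fold higher, against 16.0%. The paper reports more miRNAs lower and fewer higher than were counted here, so these percentages are not its outcome. It does not say in which library its minimum had to be met, and the rule of either library was chosen here. By the exact binomial test, 3 of all 8 members were lower at an adjusted p under 0.05, against 21.4% of 1096 miRNAs, and 1 was higher, against 10.7%. With so few members, these counts do not set the family apart from miRNAs at large.

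**Figure D2:**
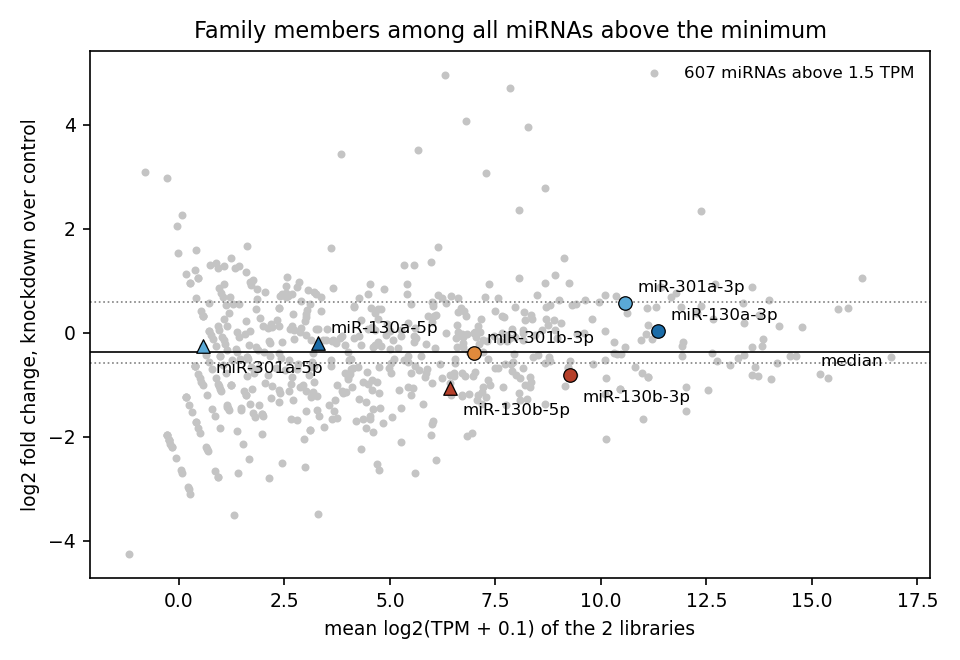
Log2 fold change of TPM + 0.1, knockdown over control, against the mean log2(TPM + 0.1) of the 2 libraries for the 607 miRNAs above 1.5 TPM in at least 1 library (grey), with the 3p members as circles and the 5p members as triangles. Dotted lines mark 1.5-fold and the solid line the median of -0.37, with miR-301a-3p at 0.58 and miR-130b-5p at -1.06 as the extremes of the family.

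Summed over the 4 strands, the 3p reads of the family came to 50325 control and 16245 knockdown reads, which is 4785 and 5086 TPM and a log2 change of 0.09 (0.06 to 0.11). That change was 0.34 by the median ratio, 0.31 by TMM factors and -1.63 over 1 common total. The 4 strands made up 0.523% and 0.581% of all miRNA reads. The sum hid opposite changes on the deposited TPM scale. miR-130a-3p plus miR-301a-3p went from 3828 to 4511 TPM (log2 change 0.24, 0.21 to 0.26), and miR-130b-3p plus miR-301b-3p from 956 to 575 TPM (-0.73, -0.81 to -0.66). Most of that rise was miR-301a-3p, for miR-130a-3p alone changed by 0.04. On the same scale, the log2 change of the sum without miR-301a-3p was -0.13.

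The make-up of the 3p reads therefore differed between the libraries. The cluster supplied 20.0% of them in the control (95% Wilson interval 19.6 to 20.3) and 11.3% in the knockdown library (10.8 to 11.8). Most of this was miR-130b-3p, whose share was 17.0% (16.6 to 17.3) and 9.13% (8.70 to 9.58). miR-301b-3p supplied 3.03% and 2.17%. The share of miR-301a-3p was 25.9% (25.5 to 26.3) and 36.4% (35.7 to 37.1), while miR-130a-3p, the main member, held 54.1% and 52.3%.

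**Figure D3:**
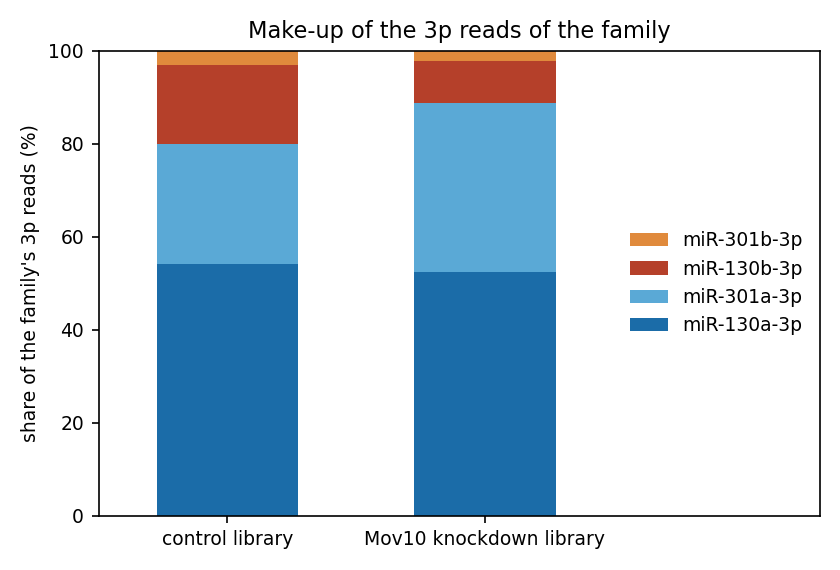
Share (%) of the summed 3p reads of the family taken by each of its 4 strands in the control and the Mov10 knockdown library, with the single-gene loci in blue and the cluster in red and orange. The cluster took 20.0% of the control and 11.3% of the knockdown reads, and miR-301a-3p 25.9% and 36.4%.

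The cluster was set against the single-gene loci directly through the ratio of their read ratios, which does not depend on how the libraries are scaled. The knockdown library had 0.183 reads of the cluster's 3p strands for each control read, and 0.358 reads of the single-gene 3p strands. Their quotient was 0.510 (95% exact interval 0.483 to 0.538). Leaving out each strand in turn kept the log2 quotient between -1.31 and -0.63, beside -0.97 with all 4. The 5p strands, which were not in that sum, gave 0.559 (0.366 to 0.872), almost all of it from miR-130b-5p on the cluster's side.

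The 6 pairs of 3p strands were compared in the same way, and each of the intervals lay below 1. Between the a and b strands of each name, miR-130b-3p against miR-130a-3p gave 0.557 (0.524 to 0.592) and miR-301b-3p against miR-301a-3p gave 0.511 (0.452 to 0.576). The widest quotient was that of miR-130b-3p to miR-301a-3p, at 0.383 (0.359 to 0.408). The narrower ones included miR-301b-3p against miR-130a-3p, across the classes, at 0.743 (0.658 to 0.837), and the pairs within each class of locus. miR-130b-3p against its cluster neighbour miR-301b-3p gave 0.750 (0.659 to 0.855), and miR-130a-3p against miR-301a-3p gave 0.688 (0.661 to 0.715). The difference was thus not confined to cluster against single-gene loci, and the members of each class also differed beyond counting error.

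**Figure D4:**
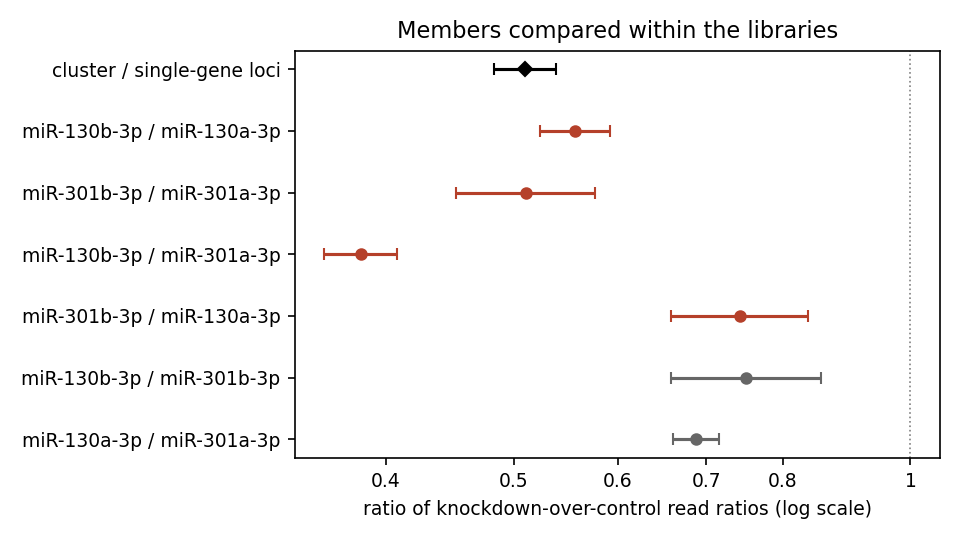
Ratio of knockdown-over-control read ratios (log scale) for the cluster against the single-gene loci (diamond), for pairs of 3p strands across these classes (red) and within them (grey), with 95% exact intervals. The dotted line at 1 marks equal change, and the values run from 0.383 for miR-130b-3p over miR-301a-3p to 0.750 for miR-130b-3p over miR-301b-3p.

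Hairpins that lie close together are often cut from a common primary transcript. Among 49 pairs of hairpins on the same strand with starts within 1000 bp, leaving out hairpins whose more abundant arm is shared with another locus, the log2 changes of the more abundant arms differed by a median of 0.41, with quartiles at 0.20 and 0.74. The cluster's own difference was 0.42, and 23 of the 49 pairs differed more. Among miRNAs with a common seed, the family was among the wider ones. In 17 seed groups with at least 3 members above the minimum, the median range of log2 changes was 0.63, with quartiles at 0.50 and 1.38. The range of miR-130a-3p, miR-130b-3p and miR-301a-3p was 1.38, the fifth widest. Only the 908 entries with a sequence could be grouped, which left out miR-301b-3p.

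The arms of the 4 hairpins were used unequally, and mir-130b stood apart from the others in both libraries. In the control library there were 6.58 reads of miR-130b-3p for each read of miR-130b-5p, against 248 for mir-130a and 814 for mir-301a. The value of mir-301a rests on 16 reads of its 5p arm. For mir-301b, with 2 such reads, no ratio is given, and the 95% Wilson interval of its 5p share reached 0.477%. The 5p arm thus took 13.2% of the mir-130b reads in the control (95% Wilson interval 12.5 to 13.9) and 11.3% in the knockdown library (9.87 to 12.9). It took 0.402% and 0.340% of the mir-130a reads, and 0.123% and 0.0676% of those of mir-301a. Over 136 hairpins with at least 1000 control reads, the median share of the minor arm was 2.78%, with quartiles at 0.359% and 13.7%. By Fisher's exact test with Benjamini-Hochberg adjustment over 314 hairpin entries with both arms, the 5p share differed between the libraries in none of the 4 hairpins, against 16.6% of all. mir-130b came nearest, with an odds ratio of 0.839 (0.709 to 0.988), unadjusted p = 0.033 and adjusted p = 0.16. Both strands of miR-130b were therefore lower in the knockdown library with no change of arm that passed the test, and for the other hairpins the few 5p reads leave wide intervals.

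Markers of the cell types in such a culture moved between the libraries too. Of 10 miRNAs above the minimum on a list for germ and pluripotent cells (the miR-290 and miR-302 clusters and the miR-182, miR-183 and miR-96 group), all had a log2 change below 0, with a median of -0.67 and a range of -2.97 to -0.37, and 7 were over 1.5-fold lower. Their list summed to 153911 control TPM and 111104 knockdown TPM, of which miR-182-5p made up 142065 and 103395. The 2 list members with no knockdown read, miR-302b-3p and miR-302d-3p, had 1 and 2 control reads, too few to show a difference at this depth. The -2.97 was that of miR-290a-3p, with 33 control reads and 1 knockdown read, and the next lowest of the 10 was miR-294-3p at -1.20. The 7 miRNAs of a fibroblast list, which the feeder cells would carry, had a median of 0.13 (-0.42 to 0.51) and summed to 27576 and 32160 TPM, none of them at 0. On a blood cell list the sum was 176 and 35.1 TPM, of which miR-142a-5p made up 158 and 28.8. Of its 3 miRNAs above the minimum, the 2 strands of mir-142a were over 1.5-fold lower, and miR-150-5p changed by -0.34. Its remaining members had at most 11 reads in either library, so the lower sum was that of mir-142a. Neither strand of miR-202, used for Sertoli cells, was listed. A list for later germ cells ranged from -0.42 to 1.43, with 2 of its 4 miRNAs above 0 and 2 below, and summed to 9484 and 17702 TPM. The log2 changes of miR-130b-3p, miR-130b-5p and miR-301b-3p fell within the range of the germ cell list. The -0.39 of miR-301b-3p also fell within the ranges of the fibroblast and later germ cell lists. Those of miR-130a-3p and miR-301a-3p lay above the range of that first list and within that of the later germ cell list. miR-130a-3p, at 0.04, was also within the fibroblast range, and miR-301a-3p, at 0.58, lay above every miRNA of the fibroblast list. The part of these shifts in the family's values was not tested.

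The miRNAs nearest to the 3p strands in their levels over both libraries, by Euclidean distance of log2(TPM + 0.1), were of other seed families. They were miR-101a-3p for miR-130a-3p (2511 and 2489.7 TPM), let-7e-5p for miR-301a-3p (1231 and 1830.1 TPM), miR-883a-3p for miR-130b-3p (754 and 468 TPM) and miR-1843b-5p for miR-301b-3p (134 and 104 TPM). With 2 libraries, such a match holds only a level and a ratio.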

How the data were processed

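The small RNA data were 1 control library and 1 knockdown library. According to the methods, the authors trimmed adaptors, removed ribosomal reads and mapped the remainder to miRBase without mismatches in CLC Genomics Workbench. The methods speak of triplicate samples, and whether these were pooled is not given in the sources used here. The deposited tables give whole-number read counts and TPM per mature miRNA. TPM were the authors' reads scaled to a library total of 1000000, and that total was recovered as reads over TPM. The 6 RNA-seq and 3 CLIP libraries were not analysed here.

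Each miRNA's reads were tested two-sided with an exact binomial test given these totals, with Benjamini-Hochberg adjustment over 1096 miRNAs. Pairs, the cluster and arms were compared by conditional odds ratios with exact intervals, and Fisher's exact test was used for arms. No p is given for tests over the members alone. Fold counts used plain TPM ratios above 1.5 TPM in at least 1 library, and plotted changes a pseudocount of 0.1 TPM. A floor of 3 reads is 0.285 control TPM and 0.939 knockdown TPM. The named miRNAs were all members, listed miRNAs of the same seed, the nearest miRNA to each 3p member, marker lists, and miR-148 and miR-152 for their overlapping seed. Members and lists were chosen with earlier results of these data known. Alternatives were other scalings, minimums, fold thresholds, pseudocounts and left-out members. Calculations used Python 3.11.15 with scipy 1.17.1, and TMM factors came from edgeR 4.0.16. The tests were checked on simulated reads that held counting error only, with no spread between cultures.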

Additional observations from a re-analysis of the deposited data

How the results depend on the processing

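No paired analysis was possible because only 1 small RNA library stands for each group, and none could be left out. The cluster's quotient against the single-gene loci, the pairs of strands and the 5p shares do not use a scaling. A scaling shifts the log2 changes of all strands alike, so their order could not differ between the 5 scalings. That order was miR-130b-3p lowest and then miR-301b-3p, miR-130a-3p and miR-301a-3p. Directions of single strands and of the sum did depend on the scaling. Reads of both libraries over 1 common total leave the depth difference in. On that scale the log2 changes were -1.68 for miR-130a-3p, -1.14 for miR-301a-3p and -1.63 for the summed 3p reads. All 7 members above the minimum were then over 1.5-fold lower, as were 561 of 581 miRNAs, and 10 miRNAs were higher. The summed 3p reads changed by 0.15 relative to all miRNA reads, 0.34 by the median ratio and 0.31 by TMM factors, by 0.14 without miR-130a-3p, 0.22 without miR-130b-3p and -0.13 without miR-301a-3p. miR-130a-5p turned from -0.20 to 0.048 by the median ratio and 0.014 by TMM factors. These 3 scalings shifted every log2 change by 0.07 to 0.25. The median ratio left 1 of 7 members over 1.5-fold lower, against 31.8% of all miRNAs above the minimum. Each of the 3 scalings put 1 member, miR-301a-3p, over 1.5-fold higher. The share of all miRNAs higher was 18.5% by miRNA reads, 24.2% (147 of 607) by the median ratio and 24.0% by TMM factors. A 2-fold threshold left 1 of 7 members lower, with 163 of 607 miRNAs lower and 43 higher. Without a minimum 579 of 1096 miRNAs were lower and 208 higher. The 1 member higher there was miR-301b-5p, with only 2 control reads and 1 knockdown read. Above 10 TPM 157 of 393 were lower and 53 higher.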

Other observations

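The seed of miR-148a-3p, miR-148b-3p and miR-152-3p, CAGUGCA, is that of the miR-130 and miR-301 family shifted by 1 base, and these strands also differed among themselves between the libraries. miR-148a-3p had 170868 control and 29409 knockdown reads, a log2 change of -0.82, whereas miR-148b-3p with 11308 and 3519 reads changed by 0.04 and miR-152-3p with 892 and 356 reads by 0.39. Of the 4 miRNAs on the list for later germ cells, miR-34c-5p (9034 control and 16687 knockdown TPM, most of the list's sum) and miR-34b-5p (338 and 910.04 TPM) were over 1.5-fold higher, while the log2 changes of miR-449a-5p and miR-449c-5p were -0.09 and -0.42.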
